A study of Mus musculus with 30 samples.

Results

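The mTORC1 complex and its effectors were followed as 10 genes, *Mtor*, *Rptor*, *Mlst8*, *Akt1s1*, *Tsc1*, *Tsc2*, *Rheb*, *Rps6kb1*, *Eif4ebp1* and *Eif4g1*, in RNA sequencing of the mouse left ventricle. They are 10 of 49671 genes counted in a peptide study and of 55263 genes in an antibody study. The genes were chosen by name, selected with their levels and their fold changes in both comparisons already known, so their differences between groups are given as a description.

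All mice were male and wild type, of the strain written both C57BL6 and C57BL6J in the labels and C57BL6J in the methods of the study. In the peptide study, 7 mice were administered Abeta42, recombinant human amyloid beta peptide, and 7 mice its scrambled form, ScrAbeta42, by daily intraperitoneal injection for 4 weeks, from 12 weeks of age by the labels and 10 to 12 by the methods of the study. The labels give a dose of 1 mg per day, whereas the methods give micrograms. The labels describe one cohort killed right after a glucose tolerance test and another killed after echocardiography, and do not say which gave these hearts, while the text of the study ties the sequenced hearts to the experiment with the tolerance tests. In the antibody study, 8 mice received 3D6, an antibody that neutralises Abeta42, and 8 mice received an isotype control, here Con, by weekly injection. The methods of the study place this treatment within high fat feeding, whereas the deposited design says that the mice of both groups were given Abeta42. Which of these held could not be settled. By the methods for the prevention design with 3D6, mice were 12 weeks old at a first echocardiography, went onto the diet 1 week later, had echocardiography again after 12 weeks on it, and were killed 2 weeks after that. Each sample is the ventricle of 1 mouse, so the spread within a group is that between mice.

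mTORC1 is a protein kinase complex that raises protein synthesis and lowers autophagy when amino acids, energy and growth factors are plentiful. The kinase mTOR is held with its substrates by the scaffold raptor, and the GTPase Rheb switches the kinase on at the lysosome. The TSC complex switches Rheb off, and PRAS40 holds back the complex itself. In the heart the pathway is known for its part in growth of cardiomyocytes under load and insulin. Its output runs mainly through phosphorylation of S6 kinase and of the 4E-BP proteins, which RNA levels do not measure.

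The hearts carried the markers of their tissue, and a few stood apart. Total counts per heart were 4478991 to 6015767 in the peptide hearts and 6397192 to 8310478 in the antibody hearts. All 9 markers of left ventricle and cardiomyocytes were detected in each group, with summed levels of 42876 to 90900 CPM (counts scaled to library size by the TMM method of edgeR) and 47978 to 60546 CPM. The summed level of 5 atrial markers, all detected in each group, ranged from 12.4 to 8417 CPM with Abeta42 and from 3.82 to 3665 CPM with ScrAbeta42. It ranged from 1.06 to 670.3 CPM with 3D6 and from 0.825 to 2785 CPM with Con. The mitochondrial share of the counts was 12.9 to 22.2% in the peptide hearts and 26.0 to 37.9% in the antibody hearts. An index of transcript length, the mean log2 level of genes with transcripts over 5000 bases minus that of genes under 1500 bases, separated 4 hearts of the antibody study. These hearts, 3D6 mice 4, 7 and 12 and Con mouse 8, had indices of 0.62 to 0.73, and the other 12 had indices of -0.29 to 0.27. The tables of the studies were made and scaled separately, so levels are compared within a study only. In bulk ventricle, fewer cells of a type and less RNA per cell cannot be told apart.

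*Mtor*, *Rptor* and *Eif4g1* gave the 3 highest Pearson correlations among pairs of members over 12 hearts of the antibody study, kept by a split chosen after seeing the data, and their promoters are shown for that reason. With the index of transcript length held constant the highest pair was instead *Rptor* and *Akt1s1*, at 0.90. The set of RefSeq promoters used here held 9 of the 10 members and had no entry for *Eif4ebp1*. The 250 bases before the RefSeq start are printed 5′ to 3′ on the strand of the gene, with capitals for the E-box CACGTG, the CCAAT box and the GC box GGGCGG on either strand. On the opposite strand the CCAAT box reads ATTGG and the GC box CCGCCC, while the E-box reads the same on both strands. No 2 of the marked motifs overlap. All are of build GRCm38.p6 and on the plus strand, *Mtor* at chr4:148448332-148448581, *Rptor* at chr11:119602655-119602904 and *Eif4g1* at chr16:20672477-20672726, inside the span that GENCODE gives this gene.
Mtor: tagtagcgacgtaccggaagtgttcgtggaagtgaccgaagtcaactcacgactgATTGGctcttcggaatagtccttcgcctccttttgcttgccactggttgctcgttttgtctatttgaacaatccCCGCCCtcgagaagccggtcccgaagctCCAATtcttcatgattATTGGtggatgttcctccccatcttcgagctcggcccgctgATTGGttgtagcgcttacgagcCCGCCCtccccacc
Rptor: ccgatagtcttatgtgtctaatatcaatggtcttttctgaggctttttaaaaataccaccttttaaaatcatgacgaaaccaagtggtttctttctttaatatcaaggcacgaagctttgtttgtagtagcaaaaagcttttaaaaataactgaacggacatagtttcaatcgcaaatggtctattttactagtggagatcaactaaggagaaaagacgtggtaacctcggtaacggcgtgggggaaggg
Eif4g1: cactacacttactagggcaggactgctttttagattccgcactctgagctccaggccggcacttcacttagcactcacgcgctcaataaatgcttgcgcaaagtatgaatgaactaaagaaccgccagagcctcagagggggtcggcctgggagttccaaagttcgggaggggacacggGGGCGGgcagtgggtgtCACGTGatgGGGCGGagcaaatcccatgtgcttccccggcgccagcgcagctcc

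Of these motifs, none was in all 3 promoters. *Mtor* held 4 CCAAT boxes and 2 GC boxes, *Eif4g1* held 1 E-box and 2 GC boxes, and *Rptor* held none of them. G and C made up 54.4% of the *Mtor* window, 58.8% of that of *Eif4g1* and 37.6% of that of *Rptor*. Among 32851 promoters of the same length, 6.02% held the E-box, 33.8% the CCAAT box and 32.7% the GC box. Of the 9 members in the promoter set used, 2 held the E-box (*Eif4g1* and *Rheb*), 1 the CCAAT box (*Mtor*) and 4 the GC box (*Akt1s1*, *Eif4g1*, *Mtor* and *Rheb*). A match describes these letters only.

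No member was called as different between groups in either comparison, and the group ranges overlapped for every member. All 10 members passed the filter on low counts, a mean of 10 counts per heart. With Abeta42, 7 of 10 members had a negative log2 fold change, and with 3D6, 9 of 10 had a positive one. Of all tested genes, 49.5% were lower with Abeta42 and 47.2% were higher with 3D6. Pairs of members correlated across hearts at medians of 0.36 (peptide study) and 0.43 (12 antibody hearts), so their signs are not independent. By the quasi-likelihood test of edgeR, with p adjusted after Benjamini and Hochberg, 0 of 10 members were called in either comparison at an adjusted p under 0.05, where 0% of 11985 tested genes in the peptide hearts and 0% of 12146 in the antibody hearts were called. At an unadjusted p under 0.05, 0 members were called by edgeR, DESeq2 or limma-voom in either comparison. At that threshold edgeR called 3.59% of all tested genes as higher and 2.92% as lower with Abeta42, and 1.29% as higher and 2.36% as lower with 3D6. In no member were the groups apart, which held for 0.0918% of tested genes with Abeta42 and 0% with 3D6. The median log2 fold change over the members was -0.066 with Abeta42, beside 0.0015 over all tested genes. With 3D6 it was 0.080, beside -0.011 over all tested genes. The estimate of *Mlst8* with 3D6 was the only one of the members that moved by less than 1.5 times under every alternative, and the others moved by more, or changed sign, when a heart was left out or under another setting.

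**Figure D1:**
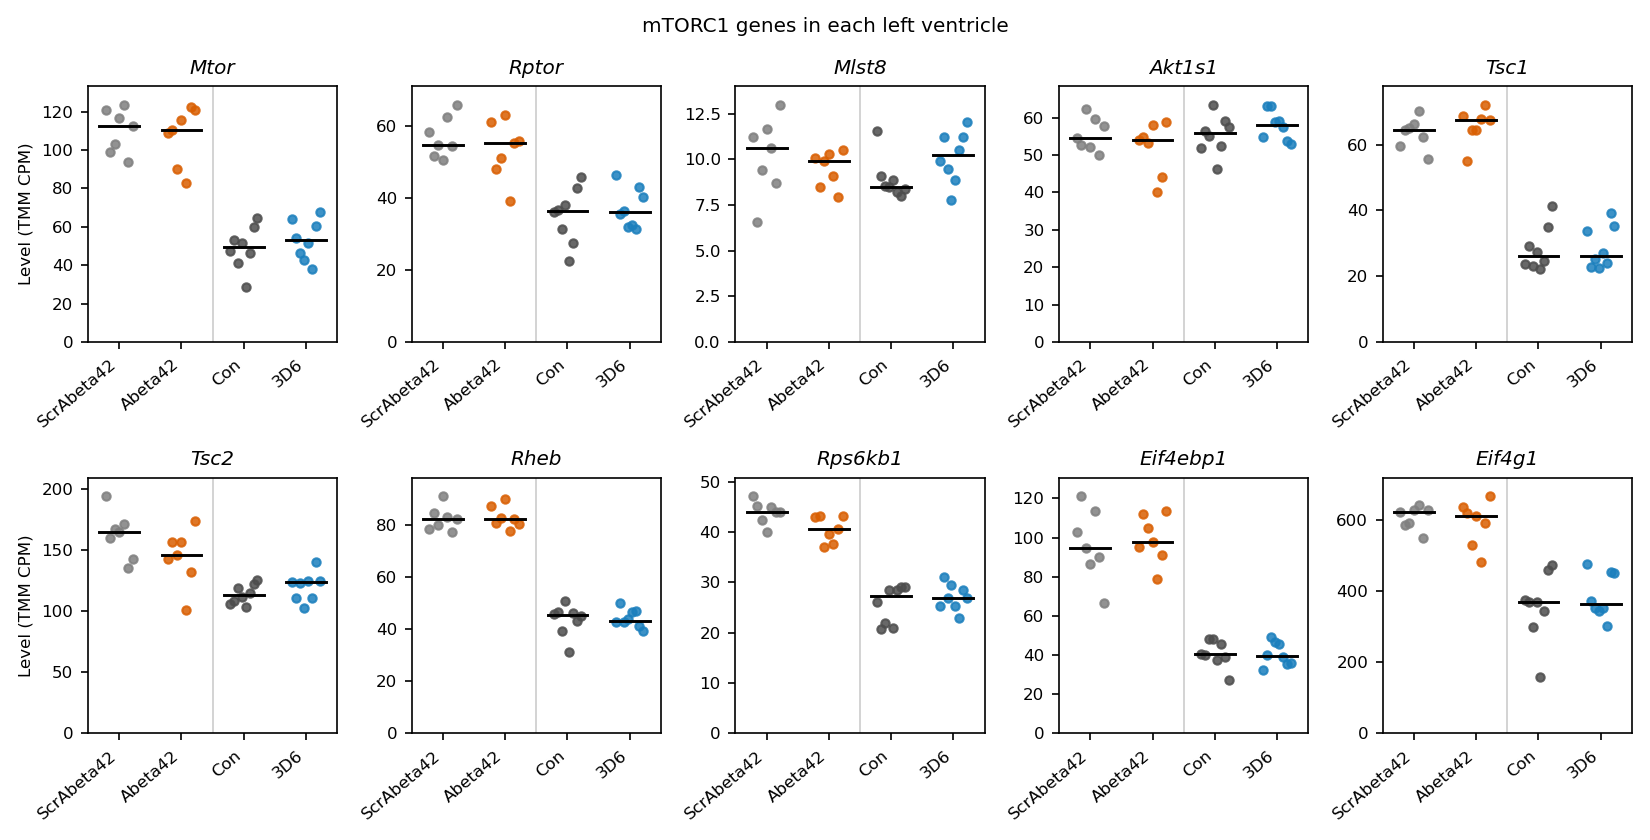
Level of each of the 10 genes in CPM, on axes that start at 0, with 1 point per heart and a line at the group median, for 7 ScrAbeta42, 7 Abeta42, 8 Con and 8 3D6 hearts. Within each study the groups overlap for every gene, and Con mouse 22 lies at 158 CPM for Eif4g1, with the next Con heart at 301 CPM.

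Single hearts set the lower end of many members at once. The mouse named Abeta42_3457 had the lowest level of its group for 7 of 10 members, *Mtor*, *Rptor*, *Akt1s1*, *Rheb*, *Tsc2*, *Eif4ebp1* and *Eif4g1*. ScrAbeta42_3448 was the lowest of its group for 5, *Mtor*, *Akt1s1*, *Rheb*, *Tsc2* and *Eif4g1*. Con mouse 22 was the lowest of its group for 7, *Mtor*, *Rptor*, *Akt1s1*, *Rheb*, *Tsc1*, *Tsc2* and *Eif4g1*. Each of these 3 mice had the lowest mitochondrial share of its group, 12.9%, 13.8% and 26.0%. Among the 3D6 hearts it was otherwise, as mouse 24 was the lowest for 4 members, *Mtor*, *Rptor*, *Rps6kb1* and *Eif4g1*, with the fourth lowest share of 8, 32.8%. The 3D6 heart with the lowest share, mouse 20 at 30.7%, was the lowest for 3 members, *Mlst8*, *Tsc1* and *Tsc2*. Abeta42_3457 and ScrAbeta42_3448 also had the highest index of transcript length of their groups, 0.91 and 0.78, and Con mouse 22 the lowest, -0.29. ScrAbeta42_3448 had the highest score of atrial markers of its group and Abeta42_3457 the second highest, whereas Con mouse 22 had the second lowest. The part of these measures in the low levels was not tested. Without Abeta42_3457, the members split into 5 higher and 5 lower with Abeta42, with a median log2 fold change of -0.011. Without ScrAbeta42_3448, 2 were higher and 8 lower, with a median of -0.088. Without Con mouse 22, 7 were higher and 3 lower with 3D6, with a median of 0.029. The summed atrial markers also moved with the group, with medians of 1158 CPM with Abeta42, 10.5 CPM with ScrAbeta42, 98.8 CPM with 3D6 and 2.89 CPM with Con. With their score as a covariate, 6 members were higher and 4 lower with Abeta42, with a median log2 fold change of 0.014, and 9 were higher and 1 lower with 3D6, with a median of 0.083.

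At the upper end, Con mouse 8 was the highest of its group for 5 members, *Mtor*, *Rptor*, *Tsc1*, *Tsc2* and *Eif4g1*, and the lowest for *Eif4ebp1*. It had the highest mitochondrial share of the Con hearts, 37.9%. Abeta42_3460 was the highest of its group for 6 members, *Mlst8*, *Akt1s1*, *Tsc2*, *Rps6kb1*, *Eif4ebp1* and *Eif4g1*, with a mitochondrial share of 17.3%, the second lowest of its group. Without Con mouse 8, the median log2 fold change over the members with 3D6 was 0.12.

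*Mtor* encodes the kinase of the complex and lies on chromosome 4 of GRCm38, from 148448611 to 148557683 on the plus strand. The lowest, median and highest levels of *Mtor* were 82.7, 110.5 and 122 CPM with Abeta42 and 93.8, 112 and 124 CPM with ScrAbeta42. They were 38.1, 53.0 and 67.5 CPM with 3D6 and 28.5, 49.6 and 64.6 CPM with Con. In both studies the group ranges lay largely on top of each other, and 2 Abeta42 hearts were below every ScrAbeta42 heart. *Mtor* had a log2 fold change of -0.035 with Abeta42 (SE 0.095, 95% interval -0.24 to 0.17) and 0.11 with 3D6 (SE 0.15, 95% interval -0.19 to 0.42). Without Abeta42_3457 the former was 0.019, and without Con mouse 22 the latter was 0.036. *Angptl7* overlaps *Mtor* on the opposite strand, with mean levels of 23.6 CPM in the peptide hearts and 0.27 CPM in the antibody hearts. Whether counting used strand is not stated, which also applies to the other members with an overlapping gene.

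*Rptor* encodes raptor, the scaffold that brings substrates to the kinase, on chromosome 11 from 119602905 to 119899576 on the plus strand. Its lowest, median and highest levels were 39.1, 55.3 and 62.9 CPM with Abeta42 and 50.7, 54.6 and 65.9 CPM with ScrAbeta42. In the antibody study they were 31.3, 36.03 and 46.4 CPM with 3D6 and 22.4, 36.4 and 45.8 CPM with Con. The medians of *Rptor* were close in both studies, and the low ends belonged to Abeta42_3457 and Con mouse 22. *Rptor* had a log2 fold change of -0.093 with Abeta42 (SE 0.098, 95% interval -0.30 to 0.11) and 0.087 with 3D6 (SE 0.13, 95% interval -0.19 to 0.36). Without Abeta42_3457 the former was -0.028, and without Con mouse 22 the latter was 0.021.

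*Mlst8*, on chromosome 17 from 24473551 to 24479078 on the minus strand, encodes a subunit that binds the kinase domain in both mTOR complexes. It was counted least of the members, with 37 to 67 counts per heart in the peptide hearts and 51 to 85 in the antibody hearts, so its levels carry the largest relative counting error. The lowest, median and highest levels were 7.92, 9.94 and 10.5 CPM with Abeta42 and 6.54, 10.6 and 13.0 CPM with ScrAbeta42. All 7 Abeta42 hearts were below the ScrAbeta42 median, although the lowest heart of the study was a ScrAbeta42 heart. With 3D6 the values were 7.76, 10.2 and 12.1 CPM, and with Con 7.98, 8.50 and 11.5 CPM. Here 7 of 8 3D6 hearts were above the Con median, while 1 lay below every Con heart. *Mlst8* had a log2 fold change of -0.10 with Abeta42 (SE 0.14, 95% interval -0.39 to 0.19) and 0.19 with 3D6 (SE 0.11, 95% interval -0.033 to 0.41), the largest estimate of any member in either comparison. With Abeta42 it was -0.19 without ScrAbeta42_3442 and -0.031 without ScrAbeta42_3449. Con mouse 11 lay at 11.5 CPM, well above the next Con heart at 9.06 CPM, and without it the value was 0.26. *Bricd5* overlaps *Mlst8* on the opposite strand, listed at 0 in the peptide study and at a mean of 0.32 CPM in the other.

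*Akt1s1* encodes PRAS40, an inhibitor that occupies raptor until Akt phosphorylates it, and lies on chromosome 7 from 44848991 to 44855421 on the plus strand. Its lowest, median and highest levels were 40.1, 53.9 and 58.7 CPM with Abeta42 and 49.9, 54.5 and 62.3 CPM with ScrAbeta42. They were 52.9, 58.1 and 63.2 CPM with 3D6 and 46.3, 55.8 and 63.4 CPM with Con. The Abeta42 group held 2 hearts below every ScrAbeta42 heart, and all 3D6 hearts lay within the Con range. *Akt1s1* had a log2 fold change of -0.10 with Abeta42 (SE 0.087, 95% interval -0.29 to 0.084) and 0.068 with 3D6 (SE 0.074, 95% interval -0.087 to 0.22). Without Abeta42_3457 the former was -0.046, and it turned to 0.011 with the score of atrial markers as a covariate. *Tbc1d17* overlaps it on the opposite strand, with mean levels of 40.2 and 27.5 CPM in the peptide and antibody studies.

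*Tsc1*, on chromosome 2 from 28641228 to 28691167 on the plus strand, encodes hamartin, which stabilises the TSC complex. In the peptide study its lowest, median and highest levels were 55.0, 67.5 and 72.1 CPM with Abeta42 and 55.8, 64.4 and 70.3 CPM with ScrAbeta42. The antibody study gave 22.4, 26.1 and 39.3 CPM with 3D6 and 22.3, 26.0 and 41.4 CPM with Con. Of the Abeta42 hearts, 6 of 7 were above the ScrAbeta42 median, and in the antibody study the ranges nearly coincided. *Tsc1* had a log2 fold change of 0.052 with Abeta42 (SE 0.066, 95% interval -0.089 to 0.19) and 0.021 with 3D6 (SE 0.15, 95% interval -0.29 to 0.33). The highest levels of *Tsc1* in the antibody study were those of Con mouse 8 at 41.4 CPM, 3D6 mouse 4 at 39.3 CPM and 3D6 mouse 7 at 35.2 CPM, which are 3 of the 4 hearts that stood apart by transcript length.

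*Tsc2*, on chromosome 17 from 24595816 to 24632630 on the minus strand, encodes tuberin, the subunit of the TSC complex that makes Rheb hydrolyse its GTP. Its lowest, median and highest levels were 101, 146 and 174 CPM with Abeta42 and 136, 165 and 194 CPM with ScrAbeta42. With 3D6 they were 103, 124 and 141 CPM, and with Con 104, 113 and 126 CPM. Of the Abeta42 hearts, 6 of 7 were below the ScrAbeta42 median and 2 were below every ScrAbeta42 heart. *Tsc2* had a log2 fold change of -0.17 with Abeta42 (SE 0.11, 95% interval -0.40 to 0.057) and 0.078 with 3D6 (SE 0.077, 95% interval -0.083 to 0.24). Without Abeta42_3457 the former was -0.10, and it was -0.010 once the score of atrial markers was a covariate. *Pkd1* overlaps *Tsc2* on the opposite strand, with mean levels of 174 and 63.0 CPM in the peptide and antibody studies.

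*Rheb* encodes the GTPase that activates the kinase and lies on chromosome 5 from 24802823 to 24842624 on the minus strand. It was the steadiest member with Abeta42, with a coefficient of variation of 5.10% over 7 hearts. Its lowest, median and highest levels were 77.7, 82.5 and 90.1 CPM with Abeta42 and 77.4, 82.5 and 91.1 CPM with ScrAbeta42. In the antibody study they were 39.6, 43.4 and 50.1 CPM with 3D6 and 31.2, 45.6 and 51.1 CPM with Con. All Abeta42 hearts lay within the ScrAbeta42 range and all 3D6 hearts within the Con range. *Rheb* had a log2 fold change of 0.0093 with Abeta42 (SE 0.053, 95% interval -0.10 to 0.12) and 0.023 with 3D6 (SE 0.090, 95% interval -0.17 to 0.21). The interval with Abeta42 was the narrowest of the members.

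*Rps6kb1* encodes S6 kinase 1, which phosphorylates ribosomal protein S6 once mTORC1 has activated it, on chromosome 11 from 86498871 to 86544805 on the minus strand. The lowest, median and highest levels were 37.1, 40.6 and 43.3 CPM with Abeta42 and 40.1, 44.0 and 47.1 CPM with ScrAbeta42. They were 23.03, 27.0 and 31.2 CPM with 3D6 and 20.7, 27.3 and 29.1 CPM with Con. All 7 Abeta42 hearts were below the ScrAbeta42 median and 3 were below every ScrAbeta42 heart, whereas 5 of 8 3D6 hearts were below the Con median. *Rps6kb1* had a log2 fold change of -0.11 with Abeta42 (SE 0.057, 95% interval -0.23 to 0.0079) and 0.083 with 3D6 (SE 0.097, 95% interval -0.12 to 0.29). Leaving out each heart of the peptide study in turn gave -0.13 to -0.091, and the score of atrial markers as a covariate gave -0.074. *Rnft1* overlaps *Rps6kb1* on the opposite strand, with mean levels of 26.5 and 11.9 CPM in the peptide and antibody studies.

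*Eif4ebp1*, on chromosome 8 from 27260329 to 27276674 on the plus strand, encodes 4E-BP1, which binds the cap-binding protein eIF4E until mTORC1 phosphorylates it. Its lowest, median and highest levels were 78.7, 97.6 and 114 CPM with Abeta42 and 66.4, 94.4 and 121 CPM with ScrAbeta42. They were 32.3, 39.5 and 49.0 CPM with 3D6 and 27.5, 40.5 and 48.2 CPM with Con. The Abeta42 hearts all lay within the ScrAbeta42 range, and 1 3D6 heart was above every Con heart. *Eif4ebp1* had a log2 fold change of 0.037 with Abeta42 (SE 0.12, 95% interval -0.21 to 0.29) and -0.012 with 3D6 (SE 0.11, 95% interval -0.25 to 0.23). It was the only member with a negative estimate with 3D6, which turned to 0.081 with the mitochondrial share as a covariate, while *Mtor*, *Rptor*, *Rheb*, *Tsc1* and *Eif4g1* turned negative.

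*Eif4g1* encodes the scaffold of the cap-binding complex, which eIF4E joins when 4E-BP1 releases it, and lies on chromosome 16 from 20668313 to 20692884 on the plus strand. It was the most counted member, with 2611 to 3508 counts per heart in the peptide hearts and 1108 to 3910 in the antibody hearts. Its lowest, median and highest levels were 482, 613 and 667 CPM with Abeta42 and 549, 624 and 642 CPM with ScrAbeta42. They were 304, 364 and 478 CPM with 3D6 and 158, 370.3 and 474 CPM with Con. The group medians were close, and the Con group had the widest spread of any member in any group, a coefficient of variation of 27.6%, with Con mouse 22 at its low end. *Eif4g1* had a log2 fold change of -0.039 with Abeta42 (SE 0.080, 95% interval -0.21 to 0.13) and 0.13 with 3D6 (SE 0.17, 95% interval -0.22 to 0.47). Without Con mouse 22 the latter was 0.022.

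**Figure D2:**
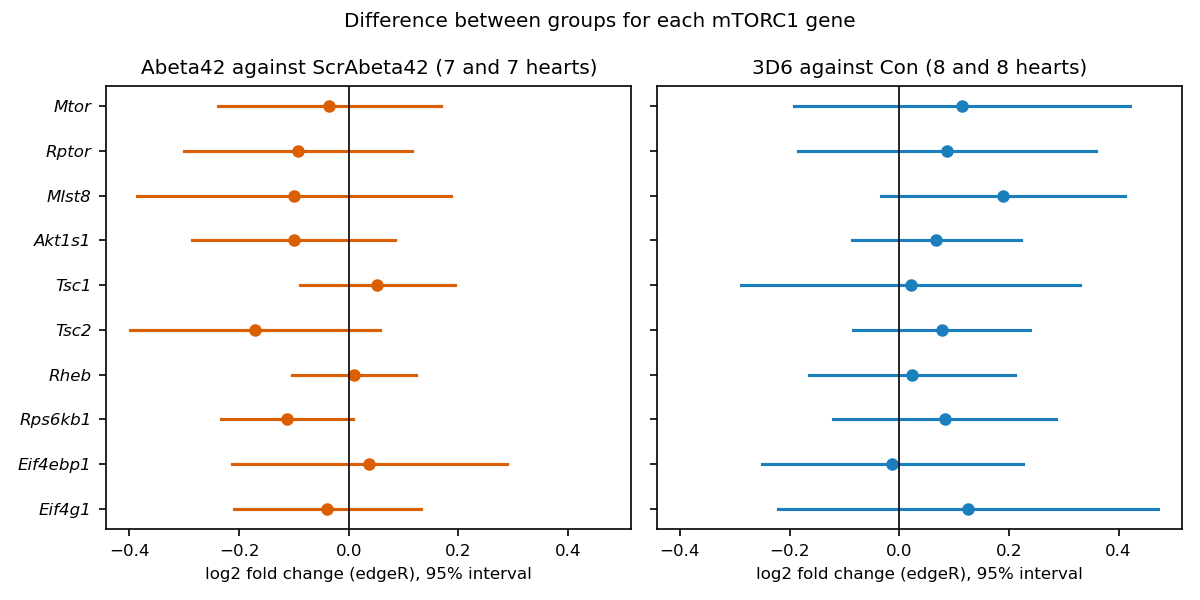
Log2 fold change of each of the 10 genes from edgeR with its 95% interval, Abeta42 against ScrAbeta42 (7 and 7 hearts, left) and 3D6 against Con (8 and 8 hearts, right), with a line at 0. All intervals include 0, and the point estimates lie between -0.17 and 0.052 on the left and between -0.012 and 0.19 on the right.

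Measured per length, the members spanned a wide range within the ventricle, from the scaffold *Eif4g1* at the top to *Mlst8* at the bottom. Over the 14 hearts of the peptide study, the median was 121 CPM per kilobase for *Eif4g1*, 55.0 for *Eif4ebp1*, 45.8 for *Rheb*, 35.2 for *Akt1s1* and 28.9 for *Tsc2*. The rest followed at 13.2 CPM per kilobase for *Mtor*, 9.10 for *Rps6kb1*, 8.79 for *Rptor*, 8.57 for *Tsc1* and 3.10 for *Mlst8*. Neighbours in this order whose ranges over hearts did not overlap were *Eif4g1* and *Eif4ebp1*, *Rheb* and *Akt1s1*, *Tsc2* and *Mtor*, and *Tsc1* and *Mlst8*. The ranges of the other neighbours overlapped. Lengths for the peptide study came from the transcripts used in the antibody study, which adds an error that is not in these ranges.

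In the antibody study, where transcripts were counted, the median over 16 hearts was 104 TPM (estimated counts scaled by transcript length and library) for *Eif4g1*, 54.3 for *Akt1s1*, 43.0 for *Tsc2*, 35.9 for *Eif4ebp1* and 34.1 for *Rheb*. *Mtor* followed at 10.002 TPM, *Rps6kb1* at 8.83, *Rptor* at 8.34, *Tsc1* at 4.91 and *Mlst8* at 4.14. Ranges were apart only between *Eif4g1* and *Akt1s1* and between *Rheb* and *Mtor*. The kinase and scaffold of the complex were thus among the 5 members of lowest level per length in both studies, together with *Rps6kb1*, *Tsc1* and *Mlst8*.

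Across hearts, *Mtor* and *Eif4g1* varied together in both studies after the group means were removed. In the peptide study their Pearson correlation was 0.90 over 14 hearts (Spearman 0.69, permutation p = 0.00026, adjusted p = 0.0195 over 150 relations), and 0.71 without the 2 hearts farthest from the median. The adjusted p of the Spearman coefficient was 0.205. In the antibody study the correlations were taken over the 12 hearts with an index of transcript length below 0.5, a split chosen after seeing the data. There *Mtor* and *Eif4g1* gave 0.94 (Spearman 0.89, permutation p = 2e-05, adjusted p = 0.003, and 0.009 for Spearman), and 0.87 without the 2 farthest hearts. Of all tested genes, 13.1% correlated with *Eif4g1* at 0.7 or above in the peptide study and 18.4% in these 12 hearts. A value of 0.7 is thus common, and the share of genes as high as this pair was not counted.

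In the same 12 hearts, *Mtor* and *Rptor* had a Pearson correlation of 0.86 (Spearman 0.80, permutation p = 0.00142, adjusted p = 0.0336), which was 0.54 without the 2 farthest hearts. *Rptor* and *Eif4g1* gave 0.89 (Spearman 0.85, permutation p = 0.00157, adjusted p = 0.0336), which was 0.63 without them. The adjusted p of the Spearman coefficient was 0.0994 for both pairs. These relations thus rest in part on 2 hearts. In the peptide study the correlation was 0.67 for *Mtor* and *Rptor* and 0.70 for *Rptor* and *Eif4g1*, each with an adjusted permutation p of 0.102. Of 45 pairs of members, 4 reached 0.7 in the peptide hearts and 8 in the antibody hearts, with median correlations of 0.36 and 0.43. Of all tested genes in the peptide hearts, 7.94% reached 0.7 with *Mtor*, 5.12% with *Rptor* and 13.1% with *Eif4g1*. In the 12 antibody hearts the shares were 15.4%, 15.5% and 18.4%, so pairs at 0.7 are common among all genes too. *Mlst8* and *Eif4ebp1* gave -0.44 and -0.47 with each other. With the other members, *Mlst8* ranged from -0.17 to 0.43 in the peptide hearts and from -0.28 to 0.20 in the antibody hearts. *Tsc1* of the peptide hearts gave -0.25 to 0.21 with the other members.

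**Figure D3:**
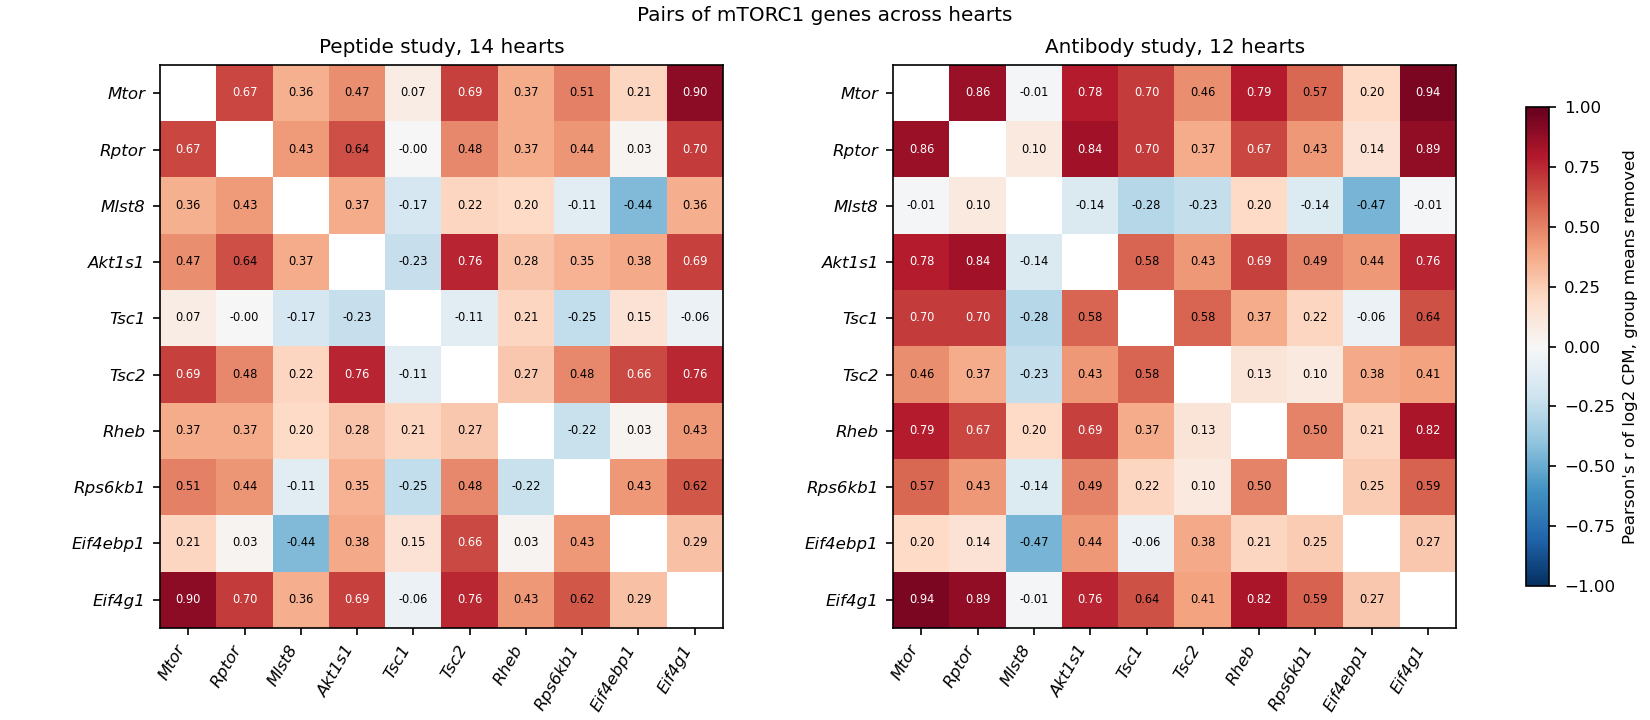
Pearson correlation of log2 CPM for each pair of the 10 genes across hearts, with group means removed, over 14 hearts of the peptide study (left) and 12 hearts of the antibody study (right), on a colour scale from -1 to 1. Mtor and Eif4g1 give 0.90 and 0.94, and Mlst8 is near or below 0 with most genes on the right.

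Levels were also set against 3 measures of the library as a whole, the mitochondrial share, the index of transcript length and the score of atrial markers. Of 60 such relations, 3 had an adjusted permutation p under 0.05 by Pearson correlation and 0 by Spearman correlation, all p-values being adjusted over the same 150 relations. Over the 12 antibody hearts, *Eif4g1* correlated with the mitochondrial share at 0.86 (Spearman 0.75, permutation p = 0.00105, adjusted p = 0.0315, and 0.155 for Spearman), and at 0.70 without the 2 farthest hearts. It correlated with the index of transcript length at 0.82 (Spearman 0.76, permutation p = 0.00087, adjusted p = 0.0315, and 0.155 for Spearman), and at 0.80 without them. As the 12 hearts were kept by a split on that same index, this p holds only within the split. *Mtor* and *Rptor* gave 0.82 and 0.86 with the mitochondrial share, which did not pass (adjusted permutation p = 0.0609 for each), and 0.49 and 0.69 without the 2 farthest hearts. Absolute values of 0.7 were common there, reached by 28.2% of all genes with the share and by 26.9% with the index. *Eif4ebp1* gave -0.075 with the share, *Mlst8* 0.24 and *Tsc2* 0.38. With the mitochondrial share held constant, *Mtor* and *Eif4g1* still correlated at 0.81, *Mtor* and *Rptor* at 0.54, and *Rptor* and *Eif4g1* at 0.56. Other pairs were above 0.56, such as *Rptor* and *Akt1s1* at 0.72, *Eif4ebp1* and *Eif4g1* at 0.67, and *Akt1s1* and *Eif4ebp1* at 0.64. None of them reached 0.81.

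*Akt1s1* of the peptide study correlated with the index of transcript length at -0.84 over 14 hearts (Spearman -0.78, permutation p = 0.00051, adjusted p = 0.0255), and at -0.77 without the 2 farthest hearts. Absolute values of 0.7 were common there too, reached by 22.7% of all genes with the index. With the mitochondrial share the members gave -0.25 for *Tsc1* up to 0.74 for *Tsc2*, none with an adjusted permutation p under 0.05. Without the 2 farthest hearts, *Tsc2* fell to 0.30 and *Eif4g1* from 0.66 to 0.10. *Mtor* then fell from 0.63 to 0.14 and *Akt1s1* from 0.55 to -0.028, so these values rest largely on such hearts. With the score of atrial markers, *Tsc2* gave -0.68 (Spearman -0.74), *Eif4g1* -0.68, *Mtor* -0.64 and *Akt1s1* -0.62 in the peptide hearts, none with an adjusted permutation p under 0.05 (0.0773 for *Tsc2*). With the index held constant, *Mtor* and *Eif4g1* correlated at 0.84. CPM is itself a share of the library, so these points share their depth and composition. With the mitochondrial share as a covariate, 5 members were higher and 5 lower with 3D6, with a median log2 fold change of 0.0071, and 3 were higher and 7 lower with Abeta42, with a median of -0.075.

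**Figure D4:**
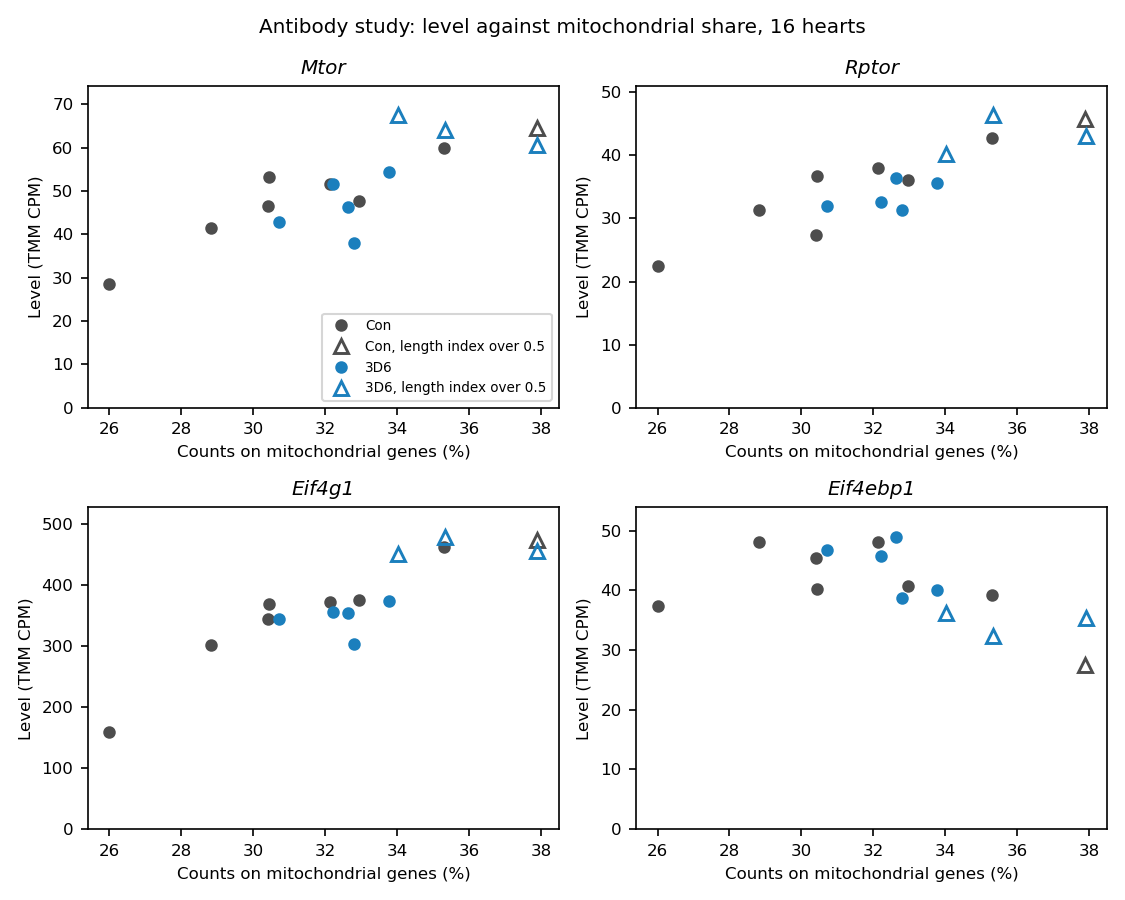
Level in CPM (vertical, from 0) of Mtor, Rptor, Eif4g1 and Eif4ebp1 against the percent of counts on mitochondrial genes (horizontal) in 16 hearts of the antibody study, with open triangles for the 4 hearts with an index of transcript length over 0.5. Con mouse 22, at a share of 26.0%, is lowest for the first 3 genes, while Eif4ebp1 is lowest in Con mouse 8, at 37.9%.

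Transcripts were counted apart in the antibody study, and for several members they were not stable from heart to heart. Of 37 transcripts of the members that passed the filter, 0 were called at an adjusted p under 0.05 by edgeR, beside 0% of 20857 tested transcripts. At an unadjusted p under 0.05, 0 were higher with 3D6 and 1 lower, *Eif4g1-204* (log2 fold change -1.81, SE 0.76), where 0.959% of all transcripts were higher and 1.44% lower. *Mtor-202* carried 98.5% of the estimated counts of its gene and *Rheb-201* carried 97.2%, so these genes were in effect measured by 1 transcript. *Akt1s1-201* carried 77.3%, *Eif4ebp1-201* 79.6%, *Rps6kb1-207* 72.2% and *Eif4g1-202* 52.4%.

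For *Rptor*, the protein coding *Rptor-201* took 56.8% and *Rptor-211*, annotated as a target of nonsense mediated decay, took 38.8%. The share of *Rptor-201* ran from 0 to 98.7% over the Con hearts and from 0 to 95.7% over the 3D6 hearts. *Tsc1* was split among *Tsc1-204* (48.0%), *Tsc1-201* (25.7%) and *Tsc1-202* (25.1%), and *Tsc2* between *Tsc2-217* (36.3%) and *Tsc2-203* (34.5%) and minor forms. *Mlst8-202* took a mean of 61.6% ± 33.4 (SD, n = 8) of its gene with 3D6 and 18.5% ± 32.7 (SD, n = 8) with Con. Its share ran from 10.7 to 98.4% and from 0 to 93.4%, so the groups overlapped widely, and its log2 fold change was 1.75 (SE 1.09). *Mlst8-201* went the other way, with means of 16.4% with 3D6 and 40.4% with Con, as did *Mlst8-207*, with 9.16% and 28.4%. The groups overlapped for these forms too. Estimated counts divide reads that match several transcripts, and the part of this step in the spread of the shares was not tested.

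The direct partners and paralogs of the members were read in the same way. DEPTOR, the inhibitor bound to both mTOR complexes, is encoded by *Deptor*, whose lowest, median and highest levels were 24.2, 35.2 and 51.6 CPM with Abeta42 and 20.8, 28.7 and 30.6 CPM with ScrAbeta42. Of 7 Abeta42 hearts, 5 were above every ScrAbeta42 heart, and the log2 fold change was 0.34 (SE 0.15, unadjusted p = 0.0362, adjusted p = 0.740 from edgeR). It was 0.075 with the score of atrial markers as a covariate and 0.21 without Abeta42_3457, the heart with the highest level. With 3D6 the value for *Deptor* was 0.13, and 0.029 with the mitochondrial share as a covariate. *Rictor*, which encodes the scaffold of mTORC2, gave 0.071 with Abeta42 and -0.13 with 3D6, the latter -0.014 without Con mouse 22.

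Among paralogs of the effectors, *Eif4ebp2* gave log2 fold changes of 0.043 with Abeta42 and 0.12 with 3D6, and *Rps6kb2*, the second S6 kinase gene, gave 0.094 and -0.11. *Eif4e*, the cap-binding protein that 4E-BP1 holds, gave -0.10 and 0.046, *Eif4g2* gave -0.028 and 0.18, and *Eif4g3* gave -0.15 and 0.076. *Tbc1d7*, the third subunit of the TSC complex, gave 0.085 and 0.17. *Rhebl1*, a paralog of *Rheb*, gave 0.31 with Abeta42 and was too low to test in the antibody study. *Eif4ebp3* was too low to test in either study. Several of these values were small beside their movement between settings. With Abeta42, *Eif4e* was -0.020 without Abeta42_3457. With 3D6 and the mitochondrial share as a covariate, *Eif4g2* was 0.00050, *Eif4ebp2* 0.00077 and *Eif4g3* 0.012. Without Con mouse 22, *Rps6kb2* with 3D6 turned to 0.049 and *Eif4e* to -0.051. None of these partners had an adjusted p under 0.05 from edgeR, and at an unadjusted p under 0.05 *Deptor* with Abeta42 was the only one. At that unadjusted threshold, 6.51% of all tested genes passed with Abeta42 and 3.66% with 3D6.

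A wider list of 132 other genes of the pathway, from inputs and amino acid sensors to the targets of ATF4, SREBP and TFEB, showed no common direction. Of 122 that could be tested in the peptide study, 62 were higher and 60 lower with Abeta42, with a median log2 fold change of 0.00032. None passed an adjusted p under 0.05 by edgeR, and at an unadjusted p under 0.05 there were 4 higher (*Deptor*, *Igf1r*, *Atg101* and *Scd1*) and 2 lower (*Irs1* and *Larp1*). These are 3.28% and 1.64% of the list, below the 3.59% and 2.92% of all tested genes, so the genes described next are only its extremes. The count of 6 rested on single hearts, with 11 without Abeta42_3452, where 7.97% of all tested genes passed, and 13 without ScrAbeta42_3448, where 10.6% did. In the antibody study 66 of 122 were higher and 56 lower with 3D6, with a median of 0.0087. There 0 genes passed an unadjusted p under 0.05 in edgeR and limma-voom, and 1 did in DESeq2. Of all tested genes, 3.66% passed in edgeR, 3.55% in limma-voom and 3.68% in DESeq2.

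The genes of the wider list with the smallest p with Abeta42 lay upstream and downstream of the complex. *Irs1*, an adaptor that carries the insulin signal to PI3 kinase, had lowest, median and highest levels of 9.31, 10.8 and 19.1 CPM with Abeta42 and 14.7, 19.3 and 24.6 CPM with ScrAbeta42. Of 7 Abeta42 hearts, 6 were below every ScrAbeta42 heart, and the log2 fold change of *Irs1* was -0.64 (SE 0.16, unadjusted p = 0.000886, adjusted p = 0.551 from edgeR). *Igf1r*, the receptor for insulin-like growth factor, gave 0.40 (SE 0.15, adjusted p = 0.702), with 4 hearts above every ScrAbeta42 heart, and 0.22 with the score of atrial markers as a covariate. *Atg101*, part of the kinase complex that starts autophagy, gave 0.34 (SE 0.10, adjusted p = 0.639), with 6 of 7 hearts above every ScrAbeta42 heart.

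*Larp1*, which binds mRNAs of ribosomal proteins downstream of mTORC1, gave -0.21 with Abeta42 (SE 0.066, adjusted p = 0.643 from edgeR), with all 7 Abeta42 hearts below the ScrAbeta42 median, and -0.14 with the score of atrial markers as a covariate. *Scd1*, a fatty acid desaturase regulated by SREBP, gave 2.29 (SE 0.94, adjusted p = 0.715), with levels from 12.0 to 837 CPM with Abeta42 and from 14.5 to 118 CPM with ScrAbeta42. Its group medians were 29.8 and 17.7 CPM, and 4 of 7 Abeta42 hearts were above the ScrAbeta42 median. The value for *Scd1* was 0.096 with the score of atrial markers as a covariate, 0.93 with limma-voom, 1.24 without Abeta42_3457 and up to 2.81 with another heart left out. The summed level of 6 adipocyte markers, all detected in each group, ranged from 0.37 to 394 CPM with Abeta42 and from 0 to 87.3 CPM with ScrAbeta42, with medians of 5.22 and 0.874 CPM, and its part in the result was not tested. None of these genes passed the adjusted threshold.

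With 3D6, the 3 higher genes of the wider list with the smallest p were *Akt2*, *Mcoln1* and *Mitf*, at log2 fold changes of 0.15, 0.15 and 0.14. The 3 lower ones were *Castor1*, an arginine sensor, at -0.43, *Slc3a2*, a chain of amino acid transporters, at -0.13, and *Idi1*, an enzyme of cholesterol synthesis, at -0.36. *Castor1* was -0.26 without Con mouse 22 and -0.19 with the mitochondrial share as a covariate, and *Mitf* was 0.087 without 3D6 mouse 12 and 0.038 with that covariate. For *Slc3a2*, 8 of 8 3D6 hearts were below the Con median and 5 were below every Con heart. Signs within the 9 groups of the list are read against all tested genes, of which 50.5% were higher with Abeta42 and 47.2% with 3D6. With Abeta42, positive estimates were found for 4 of 7 genes of mTORC2 and shared partners, 6 of 13 growth factor, energy and stress inputs, 14 of 30 amino acid sensors, 6 of 16 translation effectors and paralogs, 2 of 8 autophagy effectors and 2 of 5 other substrates. The same held for 9 of 13 ATF4 targets, 8 of 13 SREBP targets and 11 of 17 lysosomal TFEB targets. With 3D6 the counts, in the same order, were 4 of 7, 10 of 13, 14 of 29, 14 of 17, 5 of 8 and 2 of 5, and then 2 of 13 ATF4 targets, 5 of 14 SREBP targets and 10 of 16 TFEB targets. Group medians of the log2 fold change ran from -0.031 for other substrates to 0.15 for SREBP targets with Abeta42, and from -0.11 for ATF4 targets to 0.090 for the inputs with 3D6. In each of these groups the adjusted p of every gene was above 0.05 in edgeR.

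**Figure D5:**
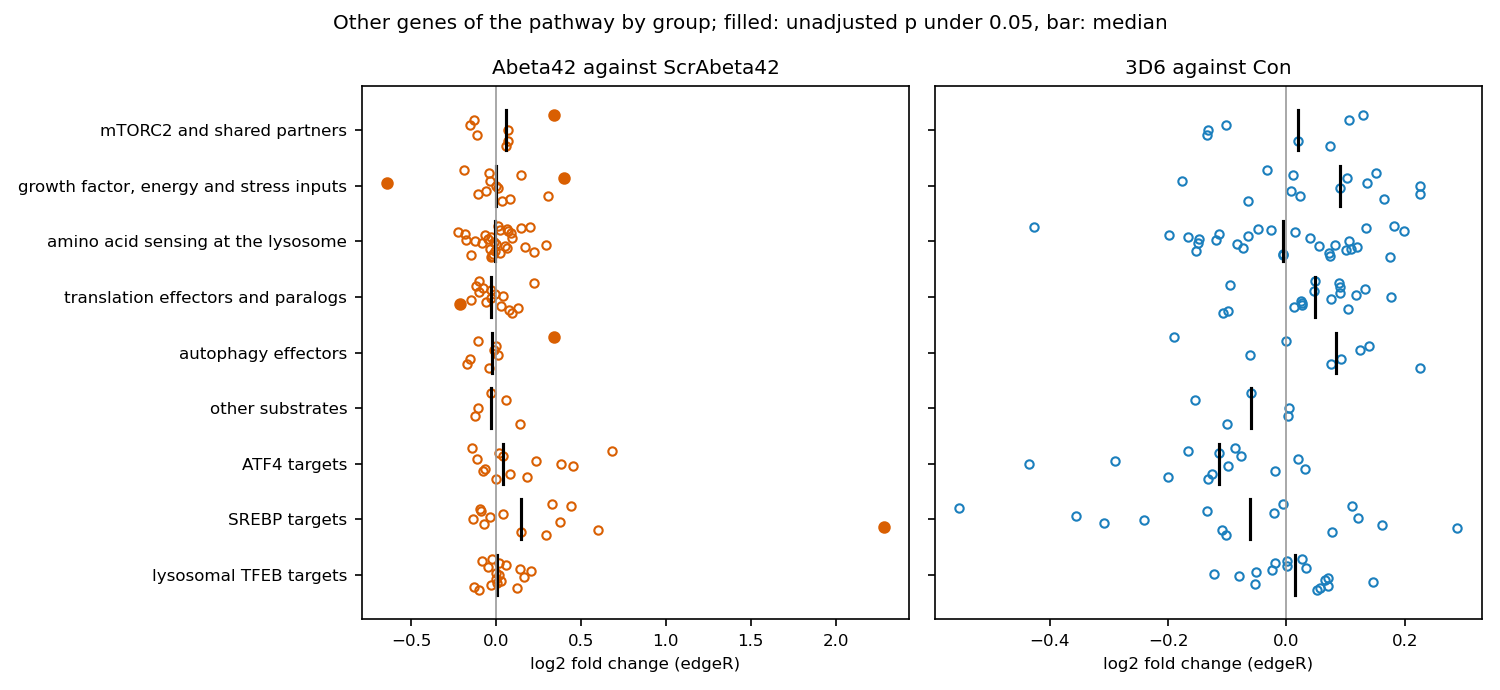
Log2 fold change from edgeR of the other genes of the pathway by group, Abeta42 against ScrAbeta42 on the left and 3D6 against Con on the right (the horizontal scales differ), with filled points at an unadjusted p under 0.05 and bars at the group medians. There are 6 filled points among 122 genes on the left and 0 on the right.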

How the data were processed

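Left ventricular RNA of 30 mice was sequenced as stranded total RNA. Per the labels, the authors used Salmon and GRCm38. For the peptide study they deposited whole-number counts per gene, and for the antibody study estimated counts per transcript, neither normalized. Transcripts were summed to genes (99.2% of them are in the GENCODE vM21 annotation used here, while the authors mapped to vM24) and rounded. The peptide table has 1 column of no labelled sample, which was not used.

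Each study was fitted separately in R 4.3.3 with edgeR 4.0.16 (TMM, mean of at least 10 counts per heart, quasi-likelihood test, two-sided, Benjamini-Hochberg adjustment over all genes). In a test on simulated counts, 200 genes had a true log2 change of 1. For Abeta42 against ScrAbeta42, 79.5% were recovered among 11985 genes, with 6 false calls. For 3D6 against Con, 89.5% were recovered among 12146 genes, with 12 false calls. Every member estimate was smaller than that change, the largest at 0.19, so these shares do not apply to changes so small. Hearts differed by more than sampling noise in every pair within a group, so each was 1 replicate. Correlations used log2 CPM with a prior count of 2 and 100000 permutations within groups, in scipy 1.17.1. Levels per length used transcript lengths weighted by the estimated counts. Alternatives were DESeq2 1.42.0, limma-voom (limma 3.58.1), RLE and total count scaling, no filter, 3 covariates and leaving out each heart. The transcript length index was added after seeing the data.

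The members and lists were chosen with earlier results of these data known. Genes named are the members, 10 partners and paralogs, and, from the wider list, the 3 higher and 3 lower genes with the smallest p in each comparison. One gene that this rule names is not reported here. Transcripts named take over 10% of the counts of their gene, except *Eif4g1-204*, named after its values were seen.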

Additional observations from a re-analysis of the deposited data

Results flagged for a closer look

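One value of a member stood far from the rest of its group. *Mlst8* was at 11.5 CPM in Con mouse 11, and the nearest other Con heart was at 9.06 CPM. The gap was 0.697 of the range of the 8 hearts, above the critical value of 0.526 of Dixon's test at 95%. In all, 40 groups of values were looked at, of which 1 held such a value, and chance alone gives about 1 in 20 groups. Without this mouse, the log2 fold change of *Mlst8* with 3D6 was 0.26.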

How the results depend on the processing

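No member was called under any alternative. At an unadjusted p under 0.05, 1 member (*Tsc2*) passed with Abeta42 under the mitochondrial share covariate and 2 (*Tsc2* and *Rps6kb1*) under the transcript length index. Of all tested genes, 10.4% and 11.4% passed under these covariates, beside 6.51% without. Also, 1 member passed without Abeta42_3452, Abeta42_3460 or ScrAbeta42_3445, where 7.97%, 8.11% and 5.65% of all tested genes passed. With 3D6, 1 member passed without Con mouse 11 or 3D6 mouse 20, where 3.45% and 3.68% of all tested genes did. Of 220 member values with Abeta42, 11 changed sign, and of 240 with 3D6, 25 did. With Abeta42, the atrial marker covariate gave log2 fold changes of 0.097 for *Mtor*, 0.011 for *Akt1s1*, 0.058 for *Eif4g1* and -0.0087 for *Rictor*, and the members then split into 6 higher and 4 lower, with a median of 0.014. Total count scaling gave 0.00367 for *Eif4g2*. Leaving out each heart gave -0.072 to 0.019 for *Mtor*, -0.011 to 0.034 for *Rheb*, -0.036 to 0.098 for *Eif4ebp1*, -0.070 to 0.0051 for *Eif4g1*, -0.0014 to 0.080 for *Eif4ebp2* and -0.052 to 0.016 for *Eif4g2*. The 6 genes of the wider list at an unadjusted p under 0.05 became 11 with the mitochondrial share and 13 with the transcript length index as a covariate, and 4 to 13 with each heart left out, 13 without ScrAbeta42_3448, where 10.6% of all tested genes passed.

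With 3D6, the mitochondrial share as a covariate gave -0.036 for *Mtor*, -0.052 for *Rptor*, -0.011 for *Rheb*, -0.14 for *Tsc1*, 0.081 for *Eif4ebp1*, -0.038 for *Eif4g1*, 0.063 for *Rps6kb2* and -0.051 for *Eif4e*, so that 5 members were higher and 5 lower. The transcript length index gave -0.068 for *Tsc1* and 0.044 for *Eif4ebp1*. Total count scaling, which moved the median of all genes to -0.058, gave -0.020 for *Rheb* and -0.018 for *Tsc1*, with 7 members higher and 3 lower. Leaving out each heart gave -0.030 to 0.058 for *Rheb*, -0.055 to 0.12 for *Tsc1*, -0.078 to 0.033 for *Eif4ebp1*, -0.15 to 0.049 for *Rps6kb2* and -0.051 to 0.093 for *Eif4e*. The wider list then had 0 to 2 genes at an unadjusted p under 0.05, 1 with DESeq2 or the atrial covariate, and 2 with total count scaling, the mitochondrial share or the length index, where 4.34%, 4.48% and 5.43% of all tested genes passed, beside 3.66%. The cause was not tested. Over all genes with Abeta42, DESeq2 called 12 where edgeR called 0. No paired analysis was possible because the mouse numbers are not shared between groups. Among the members, depth limits *Mlst8* most, at 37 to 85 counts per heart.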
